A study of Rattus norvegicus with 6 samples.

Results

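The mRNA levels of 10 genes of the pleiotrophin, midkine and chondroitin sulfate proteoglycan system were examined in cultured cortical neural progenitors of the rat. The genes were *Ptn* and *Mdk*, which encode the growth factors pleiotrophin and midkine, *Ptprz1*, their receptor-type phosphatase, the lecticans *Ncan*, *Bcan*, *Vcan* and *Acan*, the membrane proteoglycans *Cspg4* and *Cspg5*, and *Tnc*, which encodes tenascin-C. All 10 symbols were found among the 17337 gene names in the deposited tables, each at 1 locus. The genes were chosen from measured values, because the FPKM of these libraries were known when they were listed and *Ptn* stood among the names with the highest values. Their levels are therefore given as a description, with no test.

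Pleiotrophin and midkine are small, basic, secreted proteins that bind sulfated sugar chains. They bind *Ptprz1*, a transmembrane tyrosine phosphatase that carries chondroitin sulfate and is known from radial glia and glial precursors, and a secreted splice form of the same gene, phosphacan, consists of its extracellular part. The lecticans are chondroitin sulfate proteoglycans that hold on to hyaluronan with one end and to tenascins and other matrix proteins with the other, and they form much of the extracellular matrix of the brain.

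The cells were prepared from cortices of Sprague Dawley rat embryos of either sex at embryonic day 14, with no genetic change named in the labels, grown on coated dishes with 20 ng/ml of bFGF and 20 ng/ml of EGF, and taken after passage 2. PolyA RNA of 2 biological replicates, A and B, was sequenced as 2 technical libraries each, A1, A2, B1 and B2. There was 1 condition, so the spread between A and B is the only error available (n = 2). Levels are given as FPKM, fragments scaled to transcript length and library depth, and a mean ± SD is over the 2 replicates after the technical libraries had been averaged.

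The coverage that corresponds to 1 FPKM was between 22.7 and 24.4 in A1, A2 and B1 and 6.83 in B2, so that B2 was the shallowest library. All 11 markers of cortical neural progenitors had a mean of at least 10 FPKM, of which 3 were higher in A, *Fabp7* and *Hes5* among them, and 0 were higher in B. The 10 markers of meningeal and mesenchymal cells also had a mean of at least 10 FPKM each, and 9 of them were higher in B. Among these, *Ptgds* had 3.86, 5.22, 8.18 and 292 FPKM and *Foxc1* had 14.2, 14.1, 29.4 and 115 FPKM in A1, A2, B1 and B2. Both were thus far higher in B2 than in B1. Higher means here that log2(FPKM + 1) of the replicates was at least 1 apart and that their libraries did not overlap. With a mean of at least 1 FPKM also required, 2.77% of all gene names were higher in B and 0.952% were higher in A. The FPKM of the 10 markers summed to 718 and 704 in A1 and A2 and 2622 and 3454 in B1 and B2. Of 8 astrocyte markers, 6 had a mean of at least 10 FPKM, with *Gfap* at 571 ± 127 FPKM (SD, n = 2), and 1 was higher in B and 2 were higher in A, and of 8 neuronal markers 0 differed. All 6 endothelial and all 7 microglial markers had a mean below 1 FPKM. In bulk RNA, fewer cells of a type and less RNA per cell cannot be told apart.

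The 10 genes spanned levels from 3058 FPKM to almost none. Ordered by mean FPKM they ran from *Ptn* through *Mdk*, *Ptprz1*, *Bcan*, *Cspg5*, *Ncan*, *Tnc* and *Vcan* to *Cspg4* and *Acan*. The first 8 had a mean of at least 1 FPKM. *Vcan* was the member just inside this threshold with 31.9 FPKM and *Cspg4* the one just outside it with 0.585 FPKM. Neighbours in the order kept it in all 4 libraries, and their values did not overlap, except for 2 pairs. *Bcan* was above *Cspg5* in 3 of 4 libraries, and *Cspg5* was above *Ncan* in 2 of 4, so neither pair differed beyond its spread, whereas *Bcan* was above *Ncan* in all 4. Together the 10 genes made up 0.917% and 0.945% of all TPM in A1 and A2 and 0.750% and 0.883% in B1 and B2. *Ptn* and *Mdk* alone supplied 86.5% ± 1.31 (SD, n = 2) of the summed FPKM of the 10 genes.

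**Figure D1:**
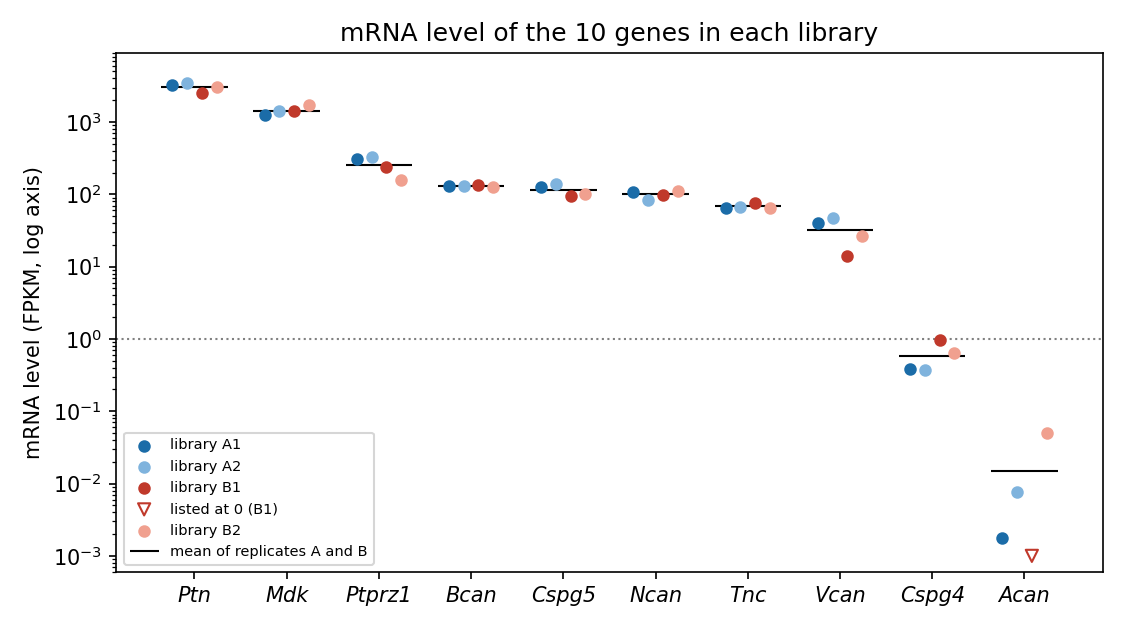
FPKM of the 10 genes in each library on a log axis, with the libraries of replicate A and of replicate B marked separately. *Ptn* lies between 2524 and 3484 FPKM in the 4 libraries, whereas *Cspg4* reaches at most 0.956 FPKM and *Acan* at most 0.0504 FPKM.

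*Ptn*, the gene of pleiotrophin, occupies 64239156 to 64330996 of chromosome 4 in rn6, minus strand. Its FPKM was 3200.2 and 3484 in A1 and A2 and 2524 and 3025 in B1 and B2, a mean of 3058 ± 401 (SD, n = 2). Both libraries of A were above both libraries of B, and by its mean *Ptn* ranked 7 of all gene names, with ranks of 4 in A1 and A2, 16 in B1 and 7 in B2. The level in A was 1.20-fold that in B, which is the same size as the 1.20-fold between B2 and B1.

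*Mdk*, the gene of midkine, is a compact gene of 1358 bp at 80841272 to 80842629 of chromosome 3, minus strand. Its FPKM was 1246 and 1404 in A1 and A2 and 1411 and 1695 in B1 and B2, a mean of 1439 ± 161 (SD, n = 2) and a rank of 45. The libraries of B were above those of A, but A2 and B1 were almost equal, and the 1.17-fold between the replicates was smaller than the 1.20-fold between the libraries of B. The ratio of *Ptn* to *Mdk* was 2.57 and 2.48 in A1 and A2 and 1.79 and 1.78 in B1 and B2, a mean of 2.15 ± 0.520 (SD, n = 2). The growth factors thus kept their order in every library, and the technical libraries of a replicate were much closer to each other in this ratio than the replicates were.

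*Ptprz1*, the phosphatase that binds both growth factors, spans 199461 bp at 49941304 to 50140764 of chromosome 4, plus strand, and is separated from *Ptn* by 14.1 Mb. Its FPKM was 309.6 and 326 in A1 and A2 and 238 and 155 in B1 and B2, a mean of 257 ± 85.5 (SD, n = 2) and a rank of 351. Both libraries of A were higher than both of B, by 1.61-fold for the means, while the libraries of B were themselves 1.53-fold apart. The deposited values are sums over a gene, so the transmembrane receptor and phosphacan are not separated in them.

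The ratio of *Ptn* to *Ptprz1* was 10.3 and 10.7 in A1 and A2 and 10.6 and 19.5 in B1 and B2. Ligand and receptor mRNA thus stood in nearly the same ratio in A1, A2 and B1, and B2 alone was set apart. The ratio of *Mdk* to *Ptprz1* was 4.02 and 4.31 in A1 and A2 and 5.93 and 10.9 in B1 and B2, with no overlap between the replicates.

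The lecticans differ widely in level although their genes have a common origin, and the DNA before their starts is shown for 3 of them, with mean levels of 99.8, 31.9 and 0.0149 FPKM. *Bcan*, the highest lectican, is not shown. Each line holds the 250 bases before the gene start that RefSeq gives in GRCr8, 5′ to 3′ on the strand of the gene. These are annotated starts, not starts mapped in the cells studied here. The windows are chr16:19335657-19335906 on the plus strand for *Ncan*, chr2:22595956-22596205 on the minus strand for the more upstream of the *Vcan* starts, and chr1:142390701-142390950 on the plus strand for *Acan*. Capitals mark TTATAA, which holds TATAA on both strands.
Ncan: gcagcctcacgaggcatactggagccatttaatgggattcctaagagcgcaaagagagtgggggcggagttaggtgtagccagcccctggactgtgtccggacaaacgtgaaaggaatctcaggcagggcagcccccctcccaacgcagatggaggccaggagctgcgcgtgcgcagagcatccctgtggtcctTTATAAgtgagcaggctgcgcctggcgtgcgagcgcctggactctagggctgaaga
Vcan: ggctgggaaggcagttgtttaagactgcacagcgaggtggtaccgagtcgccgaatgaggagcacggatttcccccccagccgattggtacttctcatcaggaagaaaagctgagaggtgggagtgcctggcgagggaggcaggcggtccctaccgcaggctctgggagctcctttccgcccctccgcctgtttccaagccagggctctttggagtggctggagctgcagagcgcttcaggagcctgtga
Acan: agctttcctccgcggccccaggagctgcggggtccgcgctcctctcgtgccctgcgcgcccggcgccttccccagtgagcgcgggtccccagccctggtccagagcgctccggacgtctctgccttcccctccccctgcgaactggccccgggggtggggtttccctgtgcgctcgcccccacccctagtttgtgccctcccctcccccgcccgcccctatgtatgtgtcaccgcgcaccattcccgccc
The window of *Acan*, the lectican with almost no mRNA, was the richest in CpG of the 3, with 24 CpG and 73.6% GC. The window of *Ncan* held 13 CpG and 60.8% GC, that of *Vcan* 12 CpG and 61.6% GC. The window of *Bcan*, which is not printed, held 15 CpG and 61.2% GC. The median of all 33469 windows of this length was 5 CpG and 51.2% GC. The motif TATAA, searched on both strands, began 55 bases before the start of *Ncan* and was not in the windows printed for *Vcan* and *Acan*, and 24.0% of all windows held it on either strand. Of the 10 genes 7 had a window in the RefSeq table, with 8 windows in all, and 3 of these 8 held TATAA. It lay within the last 50 bases before the start in 2 of the 8, a second window of *Vcan* and the window of *Tnc*, against 4.28% of all windows, here on the strand of the gene alone. Counts among 8 windows are too small to be set apart from these shares, and the windows of *Vcan* overlap each other. A match in these letters is a description and not a mapped site.

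*Bcan* encodes brevican, the smallest lectican, and occupies 187359675 to 187372652 of chromosome 2, minus strand. Its FPKM was 131 and 128.9 in A1 and A2 and 134 and 125 in B1 and B2. The replicates were closer in *Bcan* than in any other of the 8 genes above 1 FPKM, since the means of 130.0 FPKM in A and 129.7 FPKM in B were nearer to each other than the technical libraries of either replicate.

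*Ncan* encodes neurocan, a lectican of the developing brain, and occupies 21050243 to 21076707 of chromosome 16, plus strand. Its FPKM was 106 and 83.3 in A1 and A2 and 97.4 and 112 in B1 and B2, a mean of 99.8 ± 7.29 (SD, n = 2). The libraries of A and B overlapped, and the difference of 0.15 on the log2(FPKM + 1) scale between the replicates was smaller than those of 0.34 and 0.21 between technical libraries.

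*Vcan* encodes versican, a large lectican with several splice forms, and occupies 18490102 to 18587340 of chromosome 2, minus strand. Its FPKM was 39.5 and 47.3 in A1 and A2 and 13.9 and 26.7 in B1 and B2, a mean of 31.9 ± 16.4 (SD, n = 2). Both libraries of A were above both libraries of B, by 2.14-fold for the means. B2 was 1.93-fold above B1, so the spread within replicate B was nearly as wide as the difference between the replicates.

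*Acan* encodes aggrecan, a lectican of cartilage and of perineuronal nets, and occupies 140762758 to 140824441 of chromosome 1, plus strand. Its FPKM was 0.00178 in A1, 0.00759 in A2 and 0.0504 in B2, and it was listed at 0 in B1. The highest of these values, in B2, corresponds to a mean coverage of 0.345 reads per base, so *Acan* was near the limit of what these libraries can show. Its mean of 0.0149 FPKM was 0.0275 without B1 and 0.00234 without B2, and no fold between the replicates is given.

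The summed lectican FPKM stayed within a narrow band, with 277 and 259.6 in A1 and A2 and 245 and 265 in B1 and B2. Brevican supplied 49.7% ± 1.68 of it, neurocan 38.2% ± 4.14 and versican 12.1% ± 5.83 (SD, n = 2 for each). The share of *Vcan* was 14.3% and 18.2% in A1 and A2 and 5.65% and 10.1% in B1 and B2, whereas *Acan* never exceeded 0.0190%. The sum thus hardly differed between the replicates while the share of versican was lower in both libraries of B.

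**Figure D2:**
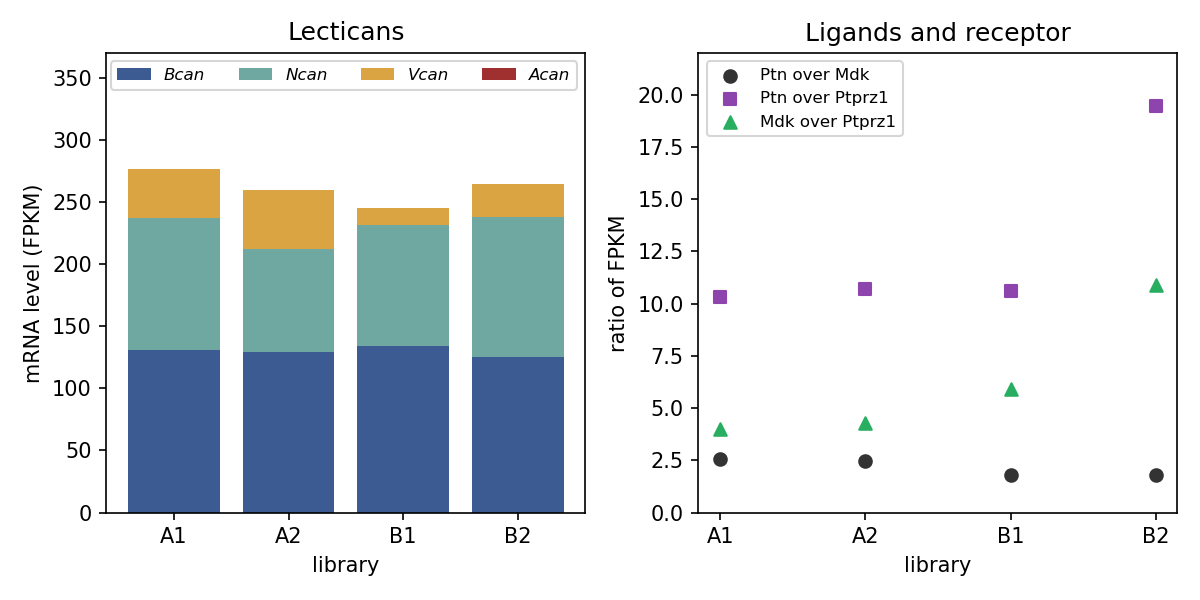
Left, stacked bars of the FPKM of *Ncan*, *Bcan*, *Vcan* and *Acan* in each library, with *Acan* too low to be seen, and right, the ratios of *Ptn* to *Mdk* and of the growth factors to *Ptprz1* in each library. The bars reach 245 to 277 FPKM, and the ratio of *Ptn* to *Ptprz1* is 19.5 in B2 against 10.3 to 10.7 in the other 3 libraries.

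*Cspg5* encodes neuroglycan C, a membrane proteoglycan of neural cells, and occupies 118333695 to 118348037 of chromosome 8, plus strand. Its FPKM was 127 and 140.0 in A1 and A2 and 96.3 and 103 in B1 and B2, a mean of 117 ± 24.2 (SD, n = 2). Both libraries of A were above both of B, by 1.34-fold for the means, and this was more than the difference between the technical libraries of either replicate. *Cspg5* lies within the span listed for *Tma7* on the minus strand, which had 572 ± 21.3 FPKM (SD, n = 2). Whether strand was used in the counting is not given in the sources used here. Without it, reads from any stretch that transcripts of both genes share cannot be told apart. The spans alone do not show whether their exons overlap.

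*Cspg4* encodes NG2, a membrane proteoglycan known from oligodendrocyte precursors and pericytes, and occupies 61532465 to 61567510 of chromosome 8, plus strand. Its FPKM was 0.386 and 0.367 in A1 and A2 and 0.956 and 0.630 in B1 and B2, a mean of 0.585 ± 0.295 (SD, n = 2). The libraries of B were above those of A at levels below 1 FPKM throughout. Among markers of the cells that carry NG2, *Pdgfra* was the only one of 8 oligodendrocyte-lineage markers that differed between the replicates, with 9.50, 9.09, 59.5 and 59.4 FPKM in A1, A2, B1 and B2, and *Sox10* stayed between 0.0731 and 0.373 FPKM. The 8 together summed to 269 to 294 FPKM in A and 363 to 704 FPKM in B. The 6 pericyte markers summed to 23.5 and 19.4 FPKM in A1 and A2 and to 50.9 and 50.6 FPKM in B1 and B2. Of the 6, *Anpep* was the one counted as higher in B, with 1.42, 1.32, 18.9 and 11.0 FPKM in A1, A2, B1 and B2. *Pdgfrb*, also a mesenchymal marker, had 21.7, 17.6, 31.5 and 38.3 FPKM in the same order. The other 4, *Rgs5*, *Kcnj8*, *Abcc9* and *Higd1b*, were each at most at 0.714 FPKM. The part of these cell types in the level of *Cspg4* was not tested. The FPKM of *Cspg5* was 329.5 and 382 times that of *Cspg4* in A1 and A2 and 101 and 163 times in B1 and B2, so the membrane proteoglycan of neural cells was far above NG2 in every library.

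*Tnc* encodes tenascin-C, a matrix protein around radial glia that binds lecticans and phosphacan, and occupies 79790275 to 79849865 of chromosome 5, minus strand. Its FPKM was 65.6 and 66.6 in A1 and A2 and 75.5 and 64.4 in B1 and B2, a mean of 68.0 ± 2.73 (SD, n = 2). The libraries of the replicates overlapped. *Tnc* thus stood with *Bcan* and *Ncan* among the members whose replicates were not apart, while *Ptn*, *Mdk*, *Ptprz1*, *Vcan* and *Cspg5* had libraries of A and B that did not overlap.

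Among the 8 genes that reached 1 FPKM, 5 had libraries of A and B that did not overlap, and 60.1% of all names at this level did so too. A gene was counted as differing when its mean reached 1 FPKM, when log2(FPKM + 1) of A and B was at least 1 apart and when their libraries did not overlap. This scale shrinks the differences of genes with low values. Of the 10 genes 1 met this, *Vcan* with a difference of -1.13 for B minus A, and 3.72% of all gene names met it in either direction and 0.952% as higher in A. A count of 1 in 10 is too small to be set apart from this background. Of the other 7 genes above 1 FPKM, *Ptprz1* came next with -0.72, then *Cspg5* with -0.42 and *Ptn* with -0.27, whereas *Mdk* had 0.23. *Cspg4*, below 1 FPKM, had 0.38. The median absolute difference of the 8 genes was 0.25 on this scale, and that of all names at this level was 0.24.

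The count rests on single libraries. Without A2 the difference of *Vcan* was just under the threshold, at -0.999, and 0 of the 10 genes were counted. Without B1 it was -0.68, and *Ptprz1* was counted in its place with -1.03. The difference of *Vcan* kept its sign when any single library was left out. Meningeal and mesenchymal markers were higher in the libraries in which *Vcan* was lower, with summed FPKM of 704 to 718 in A and 2622 to 3454 in B, and their part in the result was not tested.

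**Figure D3:**
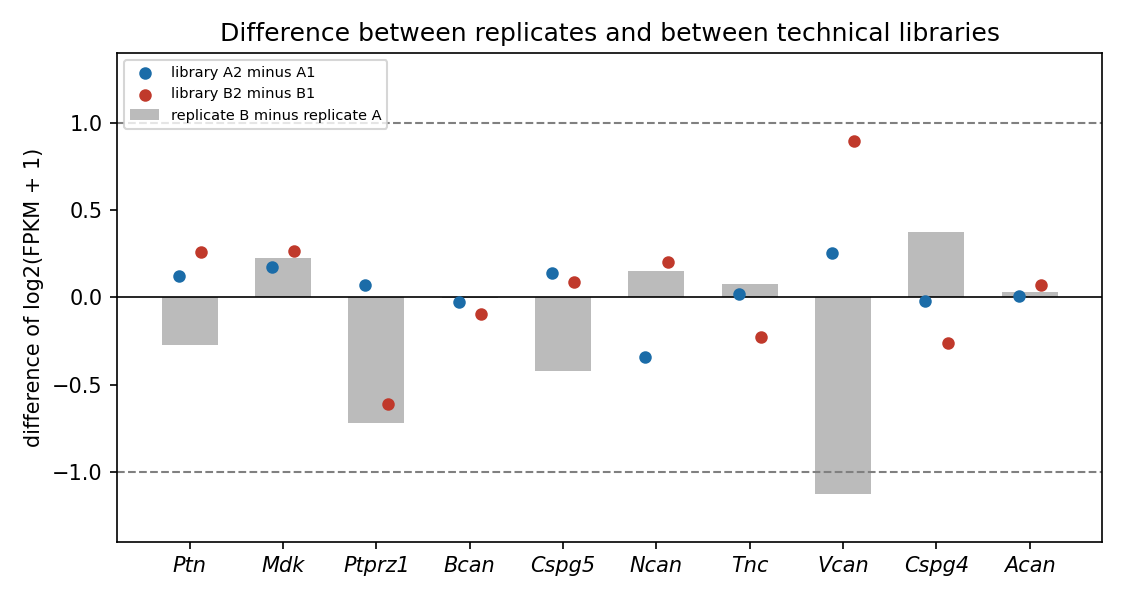
Difference between replicates B and A of log2(FPKM + 1) for each of the 10 genes, beside the differences between the technical libraries of A and of B, with lines at -1 and 1. *Vcan* is past -1 with -1.13, and its technical difference in B is 0.90.

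The genes around this system were read from 7 lists of receptors, matrix partners, enzymes and proteases, of which 72 genes were in the tables. Of these 8 were higher in B and 0 were higher in A, while 2.77% of all gene names were higher in B and 0.952% were higher in A. These shares include names below a mean of 1 FPKM, which cannot be counted. Among the 10481 names that reach it, 480 were higher in B. The lists were chosen with earlier results of these data known. The count of 8 depends on single libraries of B. Without the shallow B2, 4 of the 8 were still counted, while *Fbn1* at 0.88, *Chst11* at 0.93, *Adamts4* at 0.87 and *Adamts15* at 0.48 were not. Without B2 some of the 72 genes were counted as higher in A, *Ncam1* among them, and without B1 more were counted as higher in B. Either setting leaves 1 library in B, and the count over all gene names changed with it too. These changes are therefore not read as a result about the 72 genes.

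Of the 14 other receptors and co-receptors of pleiotrophin and midkine, 12 had a mean of at least 1 FPKM and 1 was higher in B. That gene was *Sdc1*, which encodes the heparan sulfate proteoglycan syndecan-1, with 11.7 and 12.9 FPKM in A1 and A2 and 26.0 and 33.5 FPKM in B1 and B2. The libraries of B were all above those of A in this gene, a difference of 1.19 on the log2(FPKM + 1) scale. The meningeal and mesenchymal markers given above were also higher in B, and their part in *Sdc1* was not tested. The highest receptor was *Ncl*, which encodes nucleolin, chiefly a protein of the nucleolus, with 284 ± 33.6 FPKM (SD, n = 2). *Itgb1*, the integrin beta 1 chain, followed with 122 ± 15.8 FPKM (SD, n = 2), so *Ptprz1* at 257 FPKM stood between them. The median difference of the 12 was 0.31.

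Of 8 adhesion partners and lectican ligands, 7 had a mean of at least 1 FPKM and 2 were higher in B, although the median difference of these 7 was -0.70. *Fbln1*, which encodes the matrix protein fibulin-1, had 34.7 and 35.0 FPKM in A1 and A2 and 115 and 198 FPKM in B1 and B2, a difference of 2.08. *Fbn1*, which encodes fibrillin-1, had a difference of 1.06 and was not counted without A2 or without B2. *Ncam1*, a neural cell adhesion molecule, had 70.1 and 71.2 FPKM in A1 and A2 and 26.3 and 49.5 FPKM in B1 and B2. Both of its libraries of B were lower than those of A, and its difference of -0.95 was short of the threshold, although it was counted when B2 was left out. The 2 genes counted here encode matrix proteins, and meningeal and mesenchymal markers were higher in the same libraries, as given above. Their part in these values was not tested.

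The mRNAs of enzymes that build the chondroitin sulfate chains were read for 10 of the 12 genes listed. All 10 chondroitin sulfate synthesis genes in the tables reached a mean of 1 FPKM, 0 differed, and the differences ran from -0.40 for *Csgalnact1* to 0.46 for *Xylt2* with a median of 0.07. *B3gat3*, which completes the linker between protein and sugar chain, had 90.2 ± 1.62 FPKM and *Chpf*, a chondroitin polymerizing factor, had 47.6 ± 2.22 FPKM (SD, n = 2 for each). Of 12 genes that modify the chains, 10 reached that level and 2 were higher in B. *Dse*, an epimerase that turns chondroitin into dermatan sulfate, had 3.82 and 4.34 FPKM in A1 and A2 and 12.2 and 14.2 FPKM in B1 and B2. *Chst11*, a chondroitin 4-O-sulfotransferase, had 2.31, 2.41, 5.41 and 10.2 FPKM in the same order. In both genes the libraries of B were above those of A, by 1.48 for *Dse* and 1.34 for *Chst11* on the log2(FPKM + 1) scale, and without B2 *Chst11* was at 0.93 and no longer counted. The meningeal and mesenchymal markers were higher in the same libraries, and their part in both genes was not tested. The highest genes of this list were *Papss1*, which makes the sulfate donor, with 58.3 ± 3.80 FPKM, and *Chst12*, a further 4-O-sulfotransferase, with 10.3 ± 3.44 FPKM (SD, n = 2 for each).

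Of 11 proteases that cleave lecticans and their inhibitors, 10 had a mean of at least 1 FPKM and 3 were higher in B, with a median difference of 0.75 over the 10. *Mmp2*, a secreted gelatinase, had 39.0 and 40.4 FPKM in A1 and A2 and 86.3 and 97.3 FPKM in B1 and B2, a difference of 1.19 with little spread within a replicate. *Adamts15* and *Adamts4*, proteases that cut lecticans, had differences of 1.38 and 1.18. Both were lost without B2, and the FPKM of *Adamts15* was 2.14 in B1 against 9.99 in B2. *Timp1*, a metalloproteinase inhibitor and the highest gene of the list, had 78.0, 81.3, 59.7 and 197 FPKM in A1, A2, B1 and B2, so its libraries overlapped. The 3 genes counted here were higher in the libraries with the higher mesenchymal markers, whose part was not tested.

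The hyaluronan matrix held 11 genes, of which 5 had a mean of at least 1 FPKM and 0 differed, with a median of 0.07 over the 5. *Hyal2*, a hyaluronidase, had 48.7 ± 4.85 FPKM and *Cd44*, the hyaluronan receptor, had 11.9 ± 1.96 FPKM (SD, n = 2 for each). *Cd44* was 5.61 FPKM in B1 and 20.9 in B2, with A1 and A2 in between. Of 6 receptors of chondroitin sulfate proteoglycans in the tables, 4 had a mean of at least 1 FPKM and 0 differed, with a median of -0.47 over the 4. *Ptprs*, a receptor phosphatase that binds these chains, had 294 and 241 FPKM in A1 and A2 and 205 and 179.5 FPKM in B1 and B2, and the related *Ptprf* had 45.8 ± 11.1 FPKM (SD, n = 2). *Ptprs* was thus at a level close to that of *Ptprz1* and, like it, above its B libraries in both libraries of A.

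**Figure D4:**
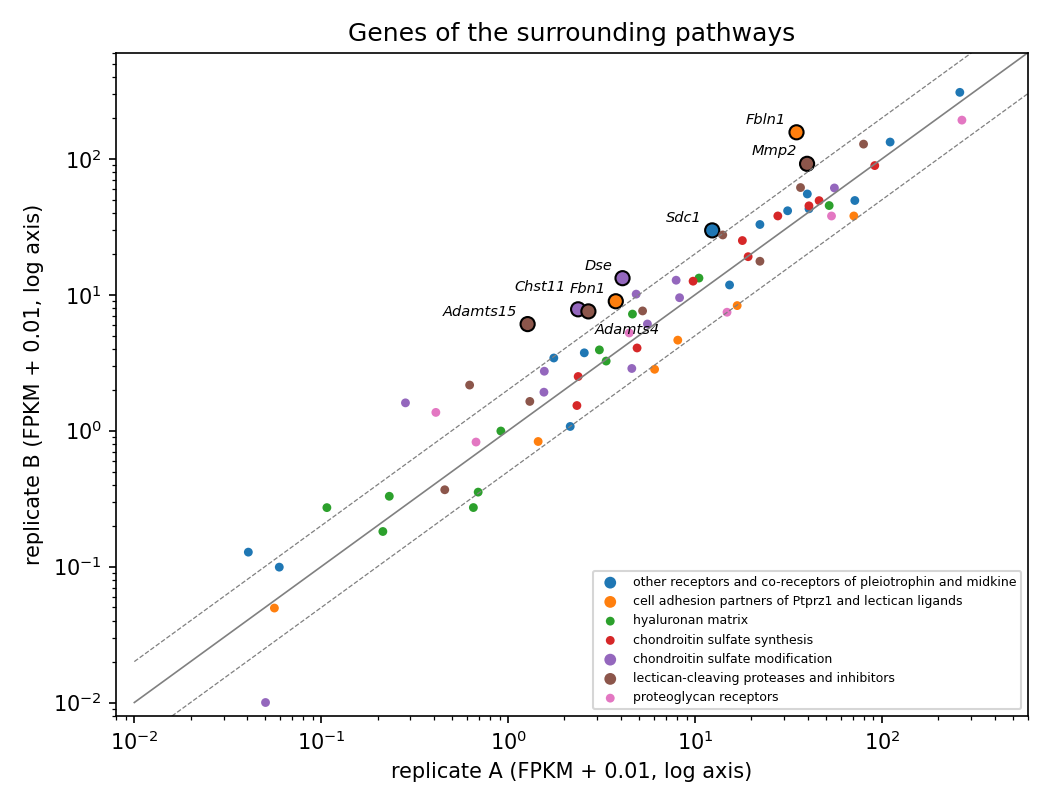
FPKM in replicate A and in replicate B of the genes of the 7 lists on log axes, with the line of equal values and dashed lines 2-fold to either side. The 8 named genes counted as differing all lie above the line, with *Fbln1* farthest in log2(FPKM + 1) at 2.08.

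Each lectican gene lies next to a gene for a hyaluronan and proteoglycan link protein, the small proteins that fasten lecticans to hyaluronan. On rn6 the pairs are *Vcan* and *Hapln1* at 73633 bp, *Bcan* and *Hapln2* at 23694 bp, *Acan* and *Hapln3* at 2853 bp and *Ncan* and *Hapln4* at 4669 bp, with 0 other listed genes between them. These pairs were picked after the coordinates had been seen. *Hapln1* had 0.179 ± 0.116 FPKM, *Hapln2* had 0.187 ± 0.0229 FPKM and *Hapln4* had 0.944 ± 0.0565 FPKM (SD, n = 2 for each), all far below the neighbouring lectican. *Hapln3* had 3.29 ± 0.0661 FPKM (SD, n = 2), which was above *Acan* in every library. The order of lectican and link protein was thus turned round at the aggrecan gene alone among the 4 pairs.

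Among other neighbours, *Nes*, the progenitor marker nestin, lies 6703 bp from *Bcan* with 39.1 ± 3.88 FPKM (SD, n = 2). *Mdk* ends 263 bp from *Chrm4*, a muscarinic receptor gene on the opposite strand with 21.0 ± 11.2 FPKM (SD, n = 2). *Chrm4* had 28.0 and 29.9 FPKM in A1 and A2 and 15.8 and 10.3 FPKM in B1 and B2, so its libraries of A were above those of B.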

How the data were processed

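PolyA RNA of 2 biological replicates with 2 technical libraries each was used, grouped by the sample labels. The column names of a supplementary list allow another reading, in which A1 pairs with B1 and A2 with B2. Under it the mean FPKM over the 4 libraries would be the same, but each SD and each difference between replicates would not. Marker sums in A1, A2, B1 and B2 were 718, 704, 2622 and 3454 FPKM for meningeal and mesenchymal cells. They were 21422, 23509, 10320 and 11078 FPKM for progenitors, so both lists set the libraries apart by label. Neuronal sums of 167, 191, 146 and 165 FPKM did not. By label, 60.1% of names at 1 FPKM had no overlap. The other pairing was not tested over all names. The authors aligned reads to rn6 with STAR and deposited FPKM, TPM and coverage per gene in the table layout of StringTie, whereas the methods name Rsubread and DESeq2 for FPKM. The deposited FPKM are scaled to transcript length and library depth, the deposited TPM are shares of all transcripts of a library, and the deposited coverage is mean read depth. Tool versions are not given in the sources used here. Read totals were not used, so no counting interval is given, and depth was read from coverage per FPKM.

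FPKM were summed by gene name, averaged over technical libraries within a replicate and then over A and B. With 1 condition and n = 2, no test between replicates was made, and Dixon's critical value was used only to point out single libraries. Genes were counted as differing when the mean reached 1 FPKM, the replicate means of log2(FPKM + 1), with a pseudocount of 1, were at least 1 apart and the libraries did not overlap. The code was checked on simulated data.

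The members and lists were chosen with earlier results of these data known. Named genes are the 10 members and, of each pathway list, the 2 with the highest mean and up to 3 that differed most, while marker genes, link protein genes, other neighbours, *Csgalnact1* and *Xylt2* were named after their values were seen. Alternatives were TPM, scaling by median of ratios, a pseudocount of 0.1, means of at least 0.1 or 10 FPKM, a difference of 0.58, and each library or replicate left out. The log2 of replicate means, and the lists without single libraries, were added after seeing the data. Promoter windows are from RefSeq (GRCr8) and were not set against rn6 coordinates. Start-seq samples and list genes outside the tables (*Fbln2*, *Cemip*, *Cemip2*, *Xylt1*, *Chsy3*, *Adamts8*, *Adamts20* and *Ptprd*) were not analysed here. Python 3.11.15, numpy 2.4.6, pandas 2.3.3 and matplotlib 3.10.9 were used.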

Additional observations from a re-analysis of the deposited data

Results flagged for a closer look

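Of 20 values examined over the 4 libraries, 3 had a library so far from the others that its gap, divided by the whole range, exceeded Dixon's critical value for 4 samples, and in each case this was B2. The ratio of *Ptn* to *Ptprz1* was 19.5 in B2. The FPKM of *Acan* was 0.0504 in B2, and the share of *Acan* in lectican FPKM was 0.0190% in B2. Both values of *Acan* rest on the same measurement, at a coverage of 0.345. B2 had 28.1% of the coverage per FPKM of A1. About 1 in 20 such groups is expected to stand out by chance, and the 4 libraries are technical pairs and not independent samples. The part of depth in these values was not tested.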

How the results depend on the processing

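Of 137 alternative values for 16 results, 127 stayed within the spread between replicates or within 1.5 times the count, and 10 moved. The number of the 10 genes counted as differing was 1, became 2 (*Ptprz1* and *Vcan*) at a difference of at least 0.58, and ranged from 0 to 1 when single libraries were left out. Over all gene names the count was 645, against 329 with a minimum mean of 10 FPKM and 1732 at a difference of 0.58. The mean of *Bcan* ranged from 127.7 to 132.0 FPKM and that of *Tnc* from 65.3 to 70.8 FPKM without single libraries, which exceeded their small SD. The rank of *Ptn* was 4 to 9, the ratio of *Ptn* to *Mdk* 1.79 to 2.52 and the share of *Ncan* 35.3% to 41.2% with either replicate left out. The number of members past the minimum was 8 at 1 FPKM and at 10 FPKM, and 9 at 0.1 FPKM. The difference of *Vcan* was -1.16 with a pseudocount of 0.1, -1.10 after scaling, -1.17 as TPM, and -1.06 from the log2 of replicate means, an alternative chosen after seeing the data. Without A1 it was -1.25 and without B2 -1.58. With n = 2 the SD is itself poorly known, and the mean of both replicates lies between the single ones, so that leaving out a replicate cannot move a value by more than the SD. *Acan* had a coverage of 0.345 and *Cspg4* of 4.31 in B2.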
